A study of Homo sapiens with 24 samples.

Results

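The transcripts described here are small nucleolar RNA (snoRNA) host genes, RNAs whose introns carry snoRNAs and whose spliced product is broken down by nonsense-mediated decay. The 10 hosts looked for were GAS5, ZFAS1, SNHG1, SNHG3, SNHG5, SNHG6, SNHG7, SNHG8, SNHG12 and SNHG15. They were matched by name to the gene groups of the deposited count tables. Of the 13236 gene groups, 6 were members: GAS5, SNHG1, SNHG5, SNHG6, SNHG8 and SNHG15, with 44 bins between them. A bin is a stretch of an exon or intron that is counted on its own. ZFAS1, SNHG3, SNHG7 and SNHG12 had no bins in these tables, and no merged gene group held their names, so they were not analysed here. None of the 4769 bins classed as detained introns, introns kept in polyadenylated nuclear transcripts, belonged to a member, so each host was measured by its other bins.

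The cells were HEK293T, an established line derived from human embryonic kidney, harvested 2 h or 6 h after OSMI-2, TMG or the solvent DMSO was given. OSMI-2 at 10 µM inhibits OGT, the enzyme that attaches O-linked N-acetylglucosamine to proteins, and TMG at 5 µM inhibits OGA, the enzyme that removes it. The OSMI-2 experiment had 3 DMSO libraries at each time, 3 OSMI-2 libraries at 2 h and 2 at 6 h. The third OSMI-2 library at 6 h was not analysed here. The TMG experiment had 3 libraries in each of its 4 groups, DMSO and TMG at 2 h and at 6 h, so 23 libraries in 8 groups were compared. All cells had fresh medium for 3 h before treatment, and the sample groups are defined by experiment, treatment and time, not by genotype. Nothing in the labels says that the libraries of a group came from separate cultures, so the p-values measure the spread between these libraries, which may be technical. Within a group the libraries are called a, b and c, after the count columns.

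Hosts of this kind are transcribed from promoters whose RNAs mostly begin with a run of pyrimidines, the 5′ terminal oligopyrimidine (TOP) motif also found in ribosomal protein mRNAs. The snoRNAs are cut from the introns and guide methylation or pseudouridylation of ribosomal RNA, while the exons are joined, exported and read by ribosomes. Short open reading frames with early stop codons then mark the spliced RNA for decay by the UPF and SMG proteins, so its level depends on both synthesis and translation. GAS5 was first found in growth-arrested cells, in which its spliced RNA accumulates, and it carries box C/D snoRNAs.

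The 5′ ends of SNHG5, SNHG8 and GAS5 are shown for the TOP run that this class of gene is known for. That of SNHG1 is shown for its first exon, whose counts are described further on. Sequences are from RefSeq, build GRCh38.p14, 250 bases before to 50 bases after the start, except the GAS5 exon. RefSeq had such an entry for 8 of the 10 hosts, 4 of them measured here. Capitals mark the TOP match in SNHG5, SNHG8 and GAS5, and the first 21 bases of the transcript, the length of its first counted bin, in SNHG1. A TOP match was a C within 5 bases of the start, on the transcribed strand, with at least 4 pyrimidines after it. RefSeq entries were searched on both sides of the start, and GENCODE transcripts, such as those of the GAS5 exon, only from the start onward.
SNHG5, chr6:85678684-85678983, minus strand: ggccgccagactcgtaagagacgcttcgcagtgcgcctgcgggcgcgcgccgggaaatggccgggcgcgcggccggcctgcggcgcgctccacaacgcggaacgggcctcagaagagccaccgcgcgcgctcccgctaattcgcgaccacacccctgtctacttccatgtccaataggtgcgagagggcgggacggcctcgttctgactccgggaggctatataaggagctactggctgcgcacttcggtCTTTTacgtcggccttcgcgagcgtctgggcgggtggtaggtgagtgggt
SNHG8, chr4:118278512-118278811, plus strand: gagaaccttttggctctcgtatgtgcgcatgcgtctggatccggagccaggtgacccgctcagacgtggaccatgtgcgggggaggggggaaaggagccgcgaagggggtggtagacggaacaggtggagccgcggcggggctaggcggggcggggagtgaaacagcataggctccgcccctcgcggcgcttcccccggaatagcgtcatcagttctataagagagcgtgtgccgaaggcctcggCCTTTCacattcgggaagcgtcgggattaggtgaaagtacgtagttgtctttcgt
SNHG1, chr11:62855836-62856135, minus strand: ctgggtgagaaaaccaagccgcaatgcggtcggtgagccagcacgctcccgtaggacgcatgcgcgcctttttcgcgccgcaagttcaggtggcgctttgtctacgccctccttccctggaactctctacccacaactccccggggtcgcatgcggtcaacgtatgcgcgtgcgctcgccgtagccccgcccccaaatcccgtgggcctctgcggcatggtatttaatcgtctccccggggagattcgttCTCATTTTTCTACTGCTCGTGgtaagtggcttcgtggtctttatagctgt
GAS5 first exon, GENCODE release 29 on GRCh38, chr1:173867960-173867989, minus strand: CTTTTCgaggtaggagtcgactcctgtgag

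The GAS5 exon is given in place of a promoter because the RefSeq start lay 1056 bases upstream of it and held no TOP match. It was picked for its match, as the most frequent first exon among the 7 GAS5 transcripts that held one. It opened 6 of the 29 annotated GAS5 transcripts, and other transcripts began 1 or more bases away from it. None of the 4 transcripts whose first exon had the length of the first counted bin held a match from its start onward. They began at 173867987, inside the printed pyrimidine run, so the C that opens this run lay just before their start and was not searched. In SNHG5 the pyrimidine run began at the annotated start, and in SNHG8 it began 5 bases before it. No match was found at the RefSeq start of SNHG1, whose first 21 bases were followed by GT. By the GENCODE search used for GAS5, some but not all transcripts of SNHG1, SNHG5, SNHG6 and SNHG8 held a match. No SNHG15 transcript held one. Among the 8 RefSeq entries 5 held a TOP match (SNHG12, SNHG8, SNHG5, SNHG7 and ZFAS1), against 21.1% of 35116 promoters of the same length. The E-box CACGTG, searched on both strands since it reads the same on each, was in 1 of the 8 (SNHG7) and in 7.26% of all promoters. These matches describe the letters in these windows only.

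Summed bin counts per library ran from 39465746 to 100161560. PAX2, a kidney developmental factor, lay between 1.21 and 4.20 CPM (counts scaled to the library total), LHX1 between 0.058 and 0.695, and NEFM, a neurofilament gene known to be made by this line, between 0.30 and 2.21. PTPRC, ALB and COL1A2, markers of blood cells, liver and fibroblasts, had no bins in the tables. In the OSMI-2 experiment, log2 gene levels increased with transcript GC content by 0.58 to 0.92 per 10 percentage points against the mean of all libraries, but by 0.16 in DMSO 6 h library a. In the TMG experiment this slope was -0.53 to -0.82. Detained introns took 0.76% to 1.21% of counts in the 3 DMSO 6 h libraries of the OSMI-2 experiment, 0.23% to 0.28% in its 2 h libraries, 0.29% and 0.33% with OSMI-2 at 6 h, and 0.38% to 0.67% in the TMG experiment. The DMSO 6 h group of the OSMI-2 experiment therefore stood apart in its introns, and 1 of its libraries in base composition as well. Their part in the host values was not tested, and the gene and bin tests of the hosts that rest on these libraries are also given without library a.

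Levels below are CPM scaled over all 23 libraries by the trimmed mean of M-values (TMM). Per kilobase of counted bins, averaged over all libraries, SNHG5 ranked first at 310.9 CPM per kb, followed by GAS5 at 243.5 and SNHG1 at 162.3. SNHG8 at 113.7, SNHG6 at 113.6 and SNHG15 at 67.4 came next. SNHG8 and SNHG6 did not differ in this ranking beyond their spread between libraries. The order did not hold in every group. In the DMSO 6 h libraries of the OSMI-2 experiment SNHG5, at a mean of 111.4 CPM per kb, lay below GAS5 at 194.2 and SNHG1 at 145.6. The order also depends on the length counted, since the 591-base bin 12 of GAS5 held a mean of only 0.893% of GAS5 counts. Without division by length GAS5 was first, at a mean of 314.6 CPM against 245.9 for SNHG5. Positions are hg19, the build named in the submitters' processing notes, as the tables list them. GAS5 lay on chromosome 1 (173833037 to 173837125, minus strand, 1292 bases in 13 bins), SNHG1 on chromosome 11 (62619458 to 62623357, minus, 946 bases in 12 bins) and SNHG5 on chromosome 6 (86386723 to 86388438, minus, 791 bases in 6 bins). SNHG6 lay on chromosome 8 (67834559 to 67837777, minus, 309 bases in 3 bins), SNHG8 on chromosome 4 (119199918 to 119200981, plus, 392 bases in 4 bins) and SNHG15 on chromosome 7 (45022620 to 45026236, minus, 1268 bases in 6 bins).

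**Figure D1:**
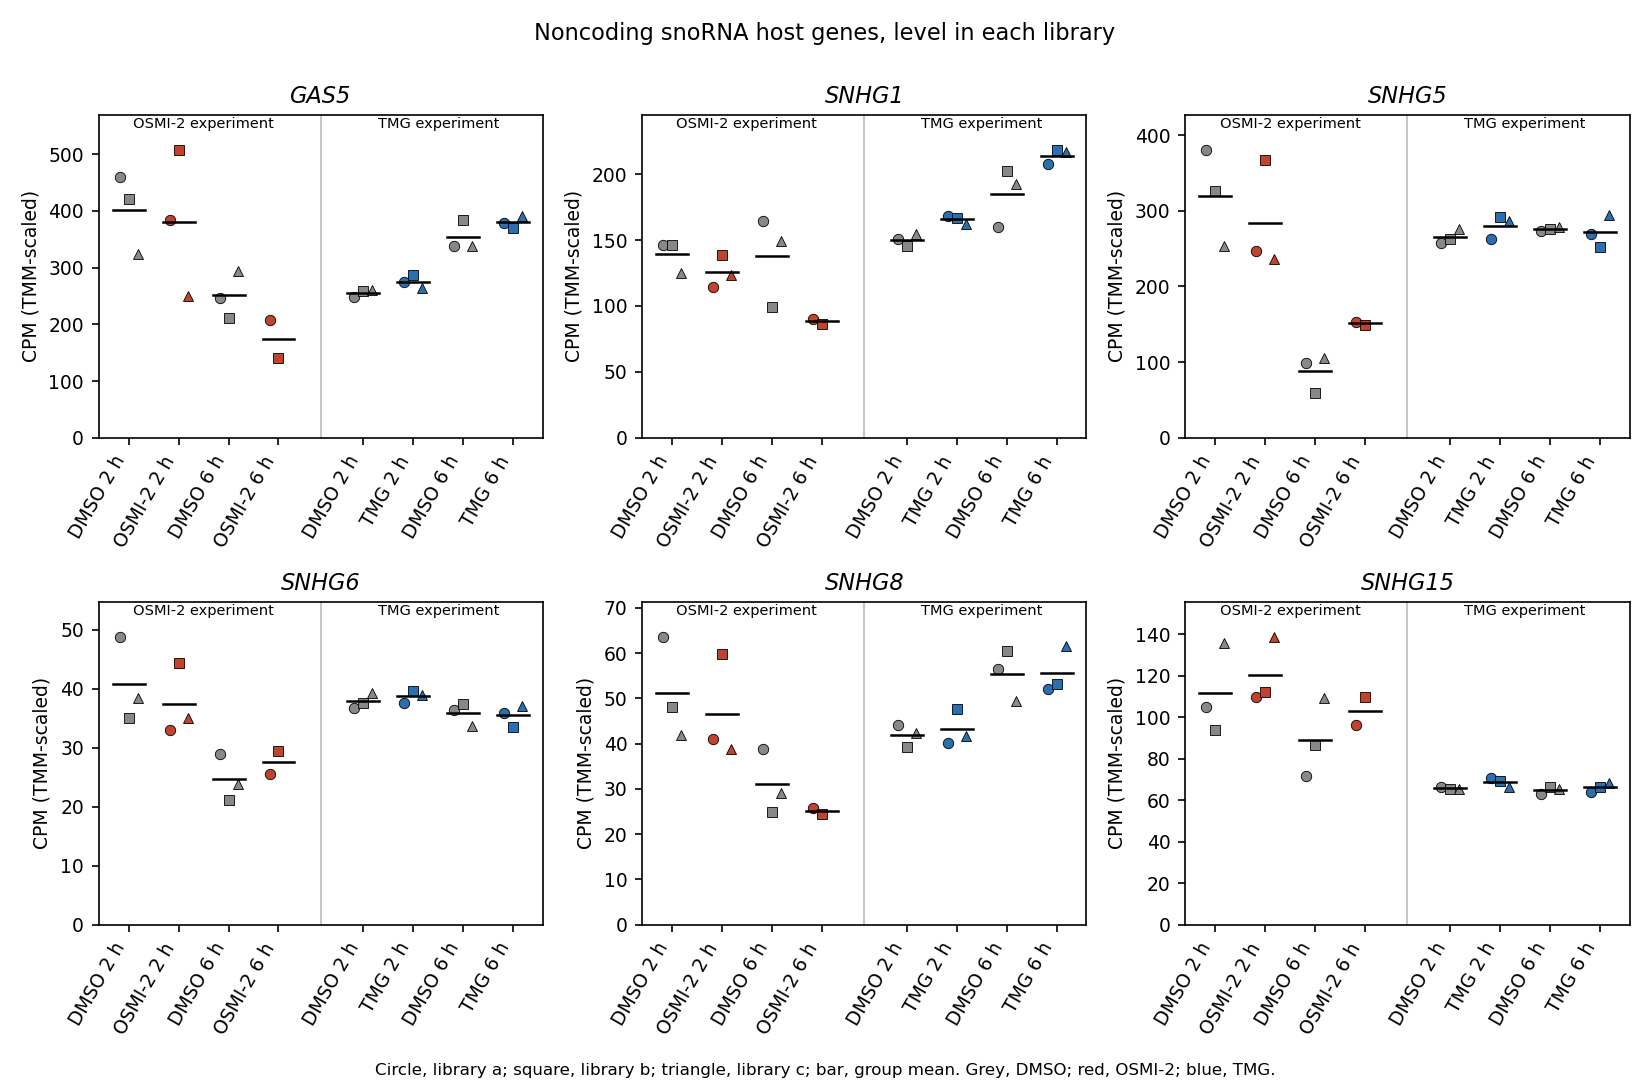
Level of each of the 6 measured snoRNA hosts in every library, in CPM scaled over all 23 libraries, by experiment, treatment and time; points are libraries and bars are group means. SNHG5 sat between 59.7 and 105 CPM in the 3 DMSO 6 h libraries of the OSMI-2 experiment, below every other library.

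Of the 6 comparisons, the largest log2 host difference was between the DMSO libraries of the OSMI-2 experiment at 6 h and 2 h. This comparison involves no drug. No group went without solvent, so time in the solvent and time since the fresh medium cannot be told apart. SNHG5, whose introns carry the box C/D snoRNAs U50 and U50B, read 381, 326 and 254 CPM in DMSO 2 h libraries a, b and c, and 99.4, 59.7 and 105 CPM in DMSO 6 h libraries a, b and c. The groups did not overlap, and the lowest 2 h library held over 2 times the level of the highest 6 h library. SNHG5 was 3.55-fold lower at 6 h, a log2 change of -1.83 (SE 0.28), with an adjusted p of 8.192e-05 (edgeR quasi-likelihood test, Benjamini-Hochberg over 12343 genes). Since the median of all genes was itself -0.25 on the log2 scale, the change relative to that median was -1.57. In bulk RNA such as this, fewer cells of a type and less RNA per cell cannot be told apart. SNHG5 passed the threshold in all of the other settings run, with log2 changes from -1.53 to -1.96.

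GAS5, SNHG6 and SNHG8 had non-overlapping and lower values at 6 h in the same libraries without passing the test. GAS5 read 459, 421 and 323 CPM in the 2 h libraries and 247, 212 and 294 CPM at 6 h. Its log2 difference was -0.64 (SE 0.27, edgeR adjusted p = 0.09054), or -0.39 relative to the median of all genes. SNHG8 read 63.6, 48.1 and 41.9 CPM at 2 h and 38.9, 25.0 and 29.1 CPM at 6 h, a log2 difference of -0.69 (SE 0.26, edgeR adjusted p = 0.06074). SNHG6 read 48.8, 35.0 and 38.4 CPM at 2 h and 29.004, 21.1 and 23.8 CPM at 6 h, a log2 difference of -0.68 (SE 0.26, edgeR adjusted p = 0.05896). SNHG6 and SNHG8 lie just outside the 0.05 threshold, and GAS5 lies further from it. SNHG1 and SNHG15 overlapped between the times: SNHG1 differed by 0.02 on the log2 scale (SE 0.26) and SNHG15 by -0.27 (SE 0.25). So 1 of 6 hosts fell and none rose, against 14% of all genes called lower and 18.5% called in either direction. Without DMSO 6 h library a, SNHG5 was at -1.90 and GAS5, SNHG6 and SNHG8 were called too, at -0.61, -0.79 and -0.86, so 4 of 6 hosts fell, while 29% of all genes were called lower and 37.2% called in either direction. Values at 6 h lay below all values at 2 h in 4 of 6 hosts and in 32.1% of all genes. With TMM factors from genes only, 836 genes were called higher and 293 lower, in place of 567 and 1722, and SNHG5 was still called.

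Between the same times, the DMSO libraries of the TMG experiment gave other values. GAS5 read 248, 258 and 260.0 CPM at 2 h and 339, 384 and 339 CPM at 6 h, with no overlap. It rose by 0.36 on the log2 scale (SE 0.07, edgeR adjusted p = 0.0002361). SNHG8 rose from 44.1, 39.2 and 42.4 CPM to 56.5, 60.5 and 49.3 CPM, a log2 change of 0.29 (SE 0.09, edgeR adjusted p = 0.006665). SNHG1 rose from 151, 145 and 155 CPM to 160.3, 203 and 193 CPM, a log2 change of 0.19 (SE 0.07, edgeR adjusted p = 0.04042). SNHG6 fell by 0.19 on the log2 scale (SE 0.08, edgeR adjusted p = 0.04984), although its libraries overlapped, at 36.7, 37.6 and 39.3 CPM against 36.4, 37.4 and 33.6 CPM. SNHG5 stayed between 257 and 278 CPM in all 6 of these libraries, with a log2 difference of -0.06 (SE 0.07), and SNHG15 between 63.2 and 66.4 CPM. In all, 3 hosts rose and 1 fell of 6, against 45.9% of all genes called, 16.3% higher and 29.6% lower. Values at 6 h lay above all values at 2 h in 3 of 6 hosts and in 30.5% of all genes. SNHG1 and SNHG6 each kept their call in 1 of the 6 fits that left out 1 library, the one without DMSO 6 h library a; in the others the edgeR adjusted p was 0.06761 to 0.1977 for SNHG1 and 0.0681 to 0.2311 for SNHG6. SNHG8 missed the threshold without DMSO 2 h library b (edgeR adjusted p = 0.05416). SNHG1 was at -0.01 with the GC slope of each library as a covariate, SNHG6 missed the threshold in 7 of the other settings, and none of the 4 passed in a single fit of all 23 libraries.

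The difference between the experiments was tested as an interaction, 6 h against 2 h of DMSO in the OSMI-2 experiment minus the same in the TMG experiment, a test added after the data were seen. SNHG5 differed by -1.92 (SE 0.29, edgeR adjusted p = 0.001308), GAS5 by -1.15 (SE 0.25, edgeR adjusted p = 0.009032) and SNHG8 by -1.13 (SE 0.28, edgeR adjusted p = 0.01673), all on the log2 scale. The median of all genes was -0.29 here, so relative to it the differences were -1.63, -0.86 and -0.84. SNHG6, at -0.65 (SE 0.24), had an adjusted p of 0.0823 by the same edgeR test, and SNHG1 and SNHG15 lay at -0.32 and -0.31. So 3 of 6 hosts passed, all lower, against 9.61% of all genes called lower and 13.2% called in either direction. SNHG8 missed the threshold with TMM factors from genes only (edgeR adjusted p = 0.0559), without OSMI-2 experiment DMSO 2 h library a (edgeR adjusted p = 0.05943) and without TMG experiment DMSO 2 h library b (edgeR adjusted p = 0.05867). Without OSMI-2 experiment DMSO 6 h library a, SNHG1 and SNHG6 passed too, and 5 of 6 hosts were called lower, against 51.4% of all genes in that fit. The experiments also differed in the GC slope of their libraries, whose part in this difference was not tested.

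**Figure D2:**
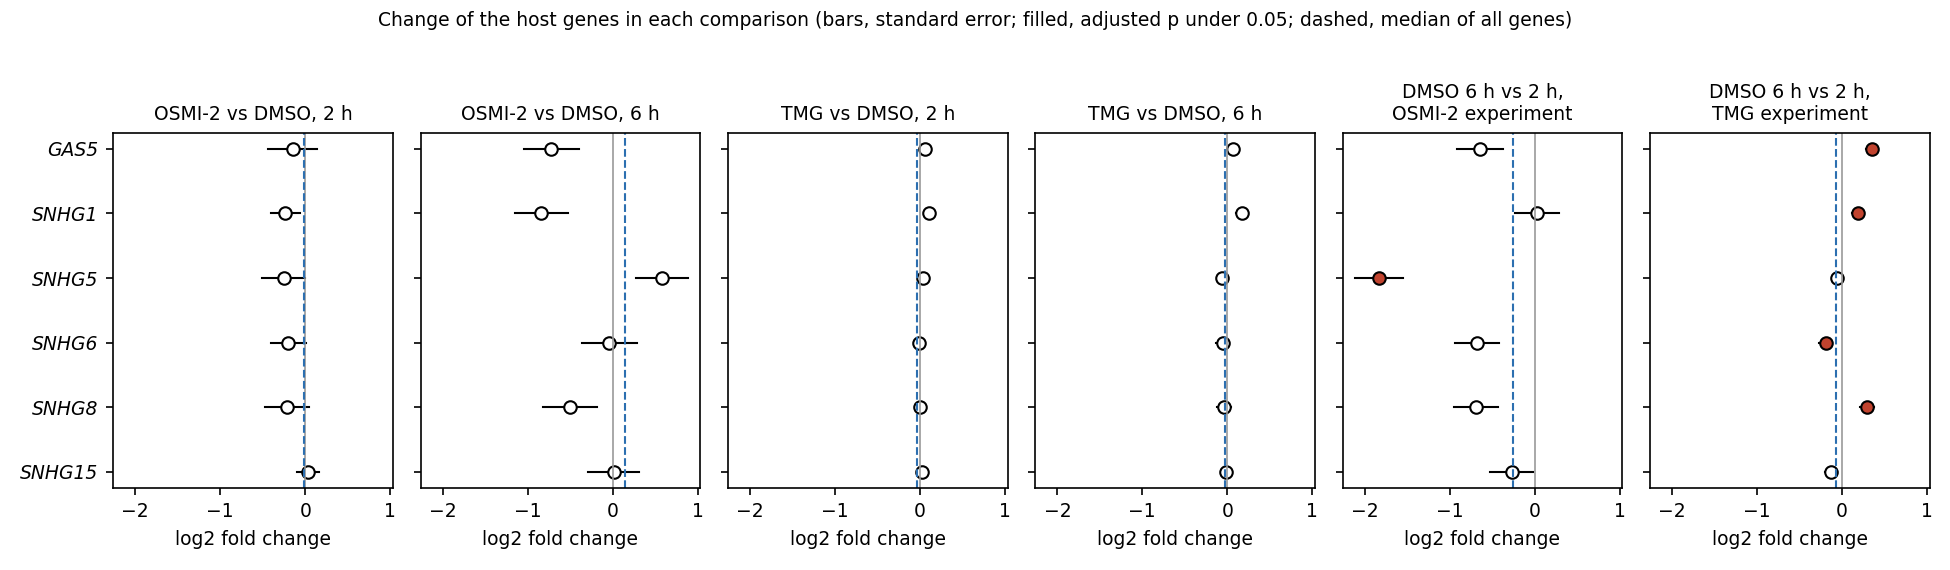
Log2 fold change of each of the 6 measured snoRNA hosts in the 6 comparisons, with bars of 1 standard error from edgeR and filled points where the adjusted p was under 0.05; the dashed line marks the median of all genes. SNHG5 stands lowest, at -1.83, for DMSO at 6 h against 2 h in the OSMI-2 experiment.

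OSMI-2 for 2 h, set against its own DMSO libraries, left all 6 hosts with overlapping values, while groups did not overlap in 4.34% of all genes. GAS5 read 384, 508 and 249.957 CPM with OSMI-2, SNHG5 247, 367 and 236 CPM, and SNHG1 115, 138 and 124 CPM, against DMSO values of 323 to 459, 254 to 381 and 125 to 146 CPM. The OSMI-2 libraries of GAS5 thus spread over a wider range than the group difference. Log2 differences ran from -0.25 (SNHG5, SE 0.25) to 0.04 (SNHG15, SE 0.13), all with an edgeR adjusted p of 0.9996. None of 6 hosts and 0% of 12343 genes passed edgeR's test; 160 genes had an unadjusted p under 0.05, and DESeq2 called 1 gene.

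After 6 h of OSMI-2 no host passed the test, and the log2 differences of the hosts had both signs. SNHG1, the host of a cluster of box C/D snoRNAs, read 90.2 and 86.6 CPM with OSMI-2 and 165, 99.4 and 149 CPM in the DMSO libraries. Both OSMI-2 libraries lay below all DMSO libraries. The log2 difference was -0.84 (SE 0.31, edgeR adjusted p = 0.08914), or -0.99 relative to the median of all genes, which stood at 0.15. GAS5 was also lower in both OSMI-2 libraries, at 208 and 139.8 CPM against 247, 212 and 294 CPM, a log2 difference of -0.72 (SE 0.32, edgeR adjusted p = 0.1602). SNHG5 read 153 and 149 CPM with OSMI-2, above the 59.7 to 105 CPM of DMSO at 6 h and below the 254 to 381 CPM of DMSO at 2 h. Its log2 difference from DMSO at 6 h was 0.58 (SE 0.30, edgeR adjusted p = 0.2300).

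SNHG8, SNHG6 and SNHG15 overlapped with DMSO. SNHG8 read 25.7 and 24.5 CPM with OSMI-2 against 38.9, 25.0 and 29.1 CPM, a log2 difference of -0.50 (SE 0.32). SNHG6 read 25.6 and 29.4 CPM against 29.004, 21.1 and 23.8 CPM, and SNHG15 96.4 and 109.9 CPM against 71.7, 86.6 and 109 CPM, log2 differences of -0.04 (SE 0.32) and 0.01 (SE 0.30). None of 6 hosts passed edgeR's test at 6 h of OSMI-2, against 4.94% of 12484 genes, 617 in number. Values with OSMI-2 lay above all DMSO values in 1 of 6 hosts and 44.4% of all genes, and below them in 2 of 6 hosts and 9.5% of all genes. These values share their DMSO 6 h libraries with the time comparison above. The call depended on the setting: SNHG1 passed without DMSO 6 h library a (log2 -0.63, edgeR adjusted p = 0.02798), with factors from genes only (-1.07, edgeR adjusted p = 0.03191), with DESeq2 (-0.98, adjusted p = 0.02308), when all 23 libraries were fitted at once (edgeR adjusted p = 0.002936) and with GC slope as a covariate (edgeR adjusted p = 0.005768). SNHG5 passed without library a (0.74, edgeR adjusted p = 0.03815), when all libraries were fitted at once (edgeR adjusted p = 0.002712) and with GC slope (edgeR adjusted p = 0.01795). GAS5 passed in the last 2 of these (edgeR adjusted p = 0.044 and 0.01397) and was at -0.67 without library a (edgeR adjusted p = 0.05253), where SNHG8 was at -0.25, SNHG6 at 0.14 and SNHG15 at -0.07. The share of all genes called moved as well, to 42.4% without library a, 47% in the fit of all libraries and 43.2% with GC slope. It is not given here for factors from genes only or for DESeq2.

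With TMG, no host passed the test at either time. At 2 h SNHG1 read 169, 167 and 162 CPM with TMG against 151, 145 and 155 CPM, and GAS5 274, 286 and 264 CPM against 248, 258 and 260.0 CPM. Both lay above DMSO in all 3 TMG libraries, by 0.10 (SE 0.05, edgeR adjusted p = 0.2205) and 0.06 (SE 0.05, edgeR adjusted p = 0.4963) on the log2 scale. SNHG15 was also higher in all 3, at 70.8, 69.3 and 66.45 CPM against 66.38, 65.5 and 65.2 CPM. Such separation on the higher side was thus found in 3 of 6 hosts and in 11.9% of all genes. None of 6 hosts passed, against 7.91% of 12361 genes called.

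At 6 h SNHG1 read 207, 219 and 216 CPM with TMG and 160.3, 203 and 193 CPM with DMSO, again without overlap, a difference of 0.17 on the log2 scale (SE 0.06, edgeR adjusted p = 0.1230). It was the only 1 of 6 hosts so separated, against 12.6% of all genes on the higher side. GAS5, at 379, 369.9 and 391 CPM against 339, 384 and 339 CPM, overlapped, and SNHG5, SNHG6, SNHG8 and SNHG15 differed by -0.06 to -0.01. Again 0 of 6 hosts passed, against 6.03% of 12103 genes. With standard errors of 0.05 to 0.07 in most of these tests, the TMG experiment resolved smaller differences than the OSMI-2 experiment, where they were 0.13 to 0.32.

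The difference between the effects of the drugs, OSMI-2 minus TMG, each against its own DMSO, was tested at each time. At 6 h SNHG1 differed by -0.85 on the log2 scale (SE 0.27, edgeR adjusted p = 0.04171), or -1.21 relative to the median of all genes, and was the single host called of 6. The share of all genes called was 19.9%, with 2.97% lower. SNHG5 differed by 0.80 (edgeR adjusted p = 0.05515) and GAS5 by -0.63 (edgeR adjusted p = 0.0973). SNHG1 kept its call in 1 of the 11 fits that each left out 1 library, the one without OSMI-2 experiment DMSO 6 h library b. Without OSMI-2 experiment DMSO 6 h library a, SNHG1 was at -0.25 and not called, and 3 hosts were called higher, SNHG5 at 1.35, SNHG6 at 0.77 and SNHG15 at 0.50 (edgeR adjusted p = 5.239e-05, 0.0002796 and 0.008174). In that fit 73% of all genes were called higher and the median of all genes was 0.88, relative to which SNHG5 was at 0.46, SNHG6 at -0.12, SNHG15 at -0.38 and SNHG1 at -1.13. At 2 h no host and 0% of genes differed between the drugs by edgeR. The difference between 6 h and 2 h of a drug's effect passed for no host, with 0.111% of all genes called for OSMI-2 and 0.0242% for TMG. For OSMI-2 it was 0.79 (SE 0.37) for SNHG5 and -0.65 (SE 0.31) for SNHG1, with edgeR adjusted p of 0.3332 and 0.3417. Without DMSO 6 h library a these were 0.93 and -0.46, again with no host called, and 12.8% of all genes passed.

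Within the hosts, single bins were compared with the rest of their gene, by limma and edgeR's diffSpliceDGE, both chosen after the data were seen. Percentages are of all the gene's counts. A log2 change in share is that of limma's ratio of a bin's counts to those of the gene's other bins. One bin of SNHG15, chromosome 7, 45025218 to 45025313 (96 bases, minus strand), stood out in the DMSO 6 h libraries of the OSMI-2 experiment. It took 0.674%, 1.28% and 0.598% of SNHG15 counts in DMSO 2 h libraries a, b and c, and 4.27%, 3.79% and 3.16% in DMSO 6 h libraries a, b and c, or 29 to 46 counts against 187 to 205. With OSMI-2 at 6 h it took 0.841% and 0.619%. So both OSMI-2 libraries at 6 h lay within the range of the 2 h libraries, and all 3 DMSO 6 h libraries lay above it. SNHG15 as a whole overlapped between these groups.

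For DMSO at 6 h against 2 h in the OSMI-2 experiment, the share of this bin rose by 2.22 on the log2 scale (SE 0.30, limma adjusted p = 0.04043), and 0.83% of 118850 bins were called. With OSMI-2 at 6 h its log2 share differed by -2.38 (SE 0.21), and by -2.28 without DMSO 6 h library a. There limma's adjusted p was 0.1067 and it called 0% of bins, diffSpliceDGE gave an adjusted p of 4.442e-05, and the authors' deposited table gave a log2 fold of -2.40 with an adjusted p of 8.17e-23, 6.45% of its bins being called. In the TMG experiment the bin took 2.05% to 3.55% of counts in all 12 libraries, with no difference between groups that passed limma. The detained introns of the genes at large moved in the same libraries, with 88.5% of 4472 tested introns called higher for DMSO at 6 h against 2 h and 86.3% of 4677 called lower with OSMI-2 at 6 h. The bin is not classed as a detained intron in the tables.

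**Figure D3:**
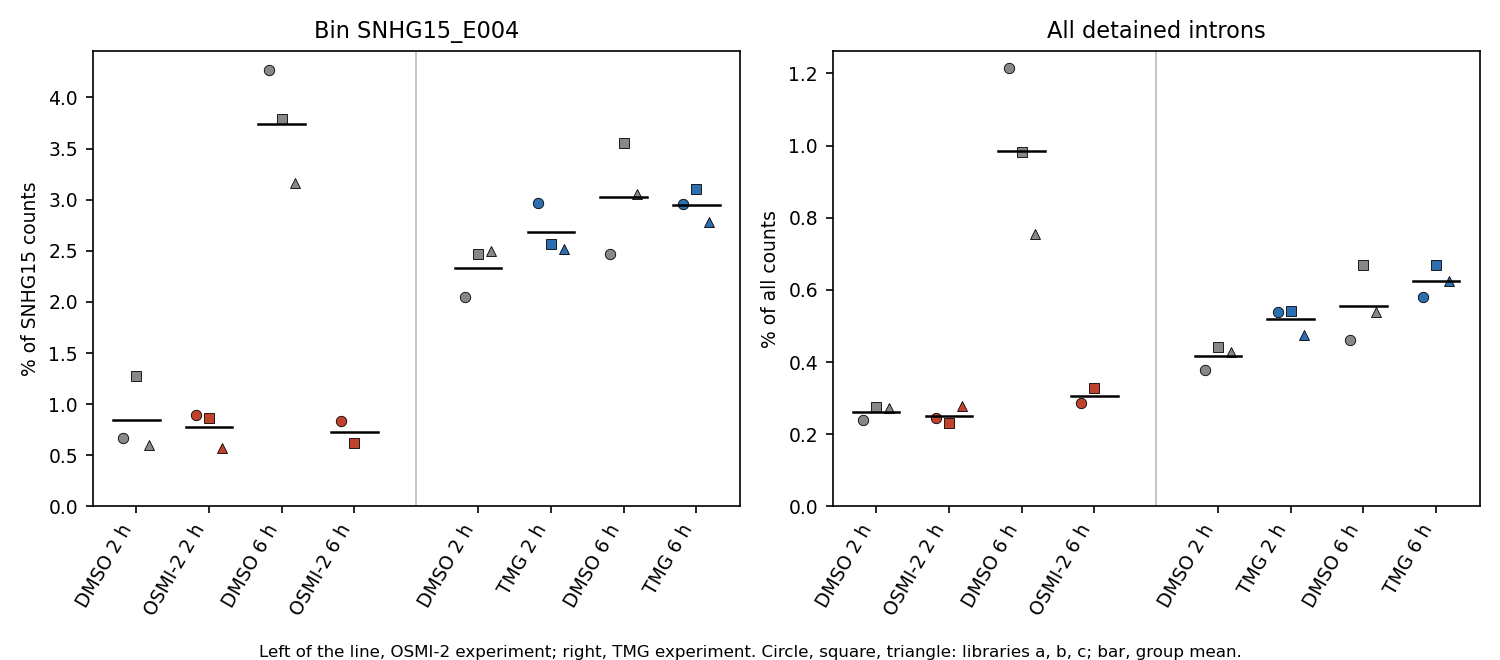
Share of SNHG15 counts in the 96-base bin, in percent, for every library by experiment, treatment and time. The 3 DMSO 6 h libraries of the OSMI-2 experiment sit between 3.16% and 4.27%, whereas the other 8 libraries of that experiment sit between 0.571% and 1.28%.

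A bin of GAS5 also took a larger share at 6 h. GAS5 bin 12, chromosome 1, 173836293 to 173836883 (591 bases), took 0.373%, 0.421% and 0.437% of GAS5 counts in DMSO 2 h libraries and 0.864%, 0.839% and 0.921% at 6 h, a log2 rise in share of 1.09 (SE 0.15, limma adjusted p = 0.04356). OSMI-2 libraries at 6 h held 0.749% and 0.994%, the first below and the second above the DMSO 6 h values. In the TMG experiment the bin took 1.01% to 1.33%. So 2 of the 44 host bins rose in share with time in the OSMI-2 experiment, against 0.652% of all bins called higher. Neither passed limma when any 1 of the 6 libraries was left out, where adjusted p for the SNHG15 bin ran from 0.0697 to 0.1554.

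SNHG1 bin 12, chromosome 11, 62623337 to 62623357, is the 21-base first bin of the gene and has the length of the capitals in the SNHG1 sequence. Its share of SNHG1 counts split the libraries of single groups. In the TMG experiment it took 0.168%, 2.06% and 0.122% in DMSO 2 h libraries a, b and c, from 14, 193 and 10 counts. With TMG at 2 h it took 2.13%, 0.24% and 1.99%, in DMSO at 6 h 0.129%, 0.186% and 2.09%, and with TMG at 6 h 0.191%, 2.26% and 0.292%. Each of these 4 groups thus held at least 1 library near 2% and at least 1 below 0.3%, with none between. In the OSMI-2 experiment 10 libraries read 1.14% to 1.69%, and DMSO 6 h library b read 0.0965%, from 6 counts. The bin was picked after its values were seen. A span of 5-fold or more within all 4 groups of an experiment was then counted among bins with a mean count of at least 50. In the TMG experiment 3 of 95309 bins (0.00315%) had such a span, this bin among them, and in the OSMI-2 experiment 0 of 77842. This rule restates the split seen here, so the bin was bound to pass and its passing is no test. SNHG1 itself did not show this split, and this bin held at most 2.26% of its counts.

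**Figure D4:**
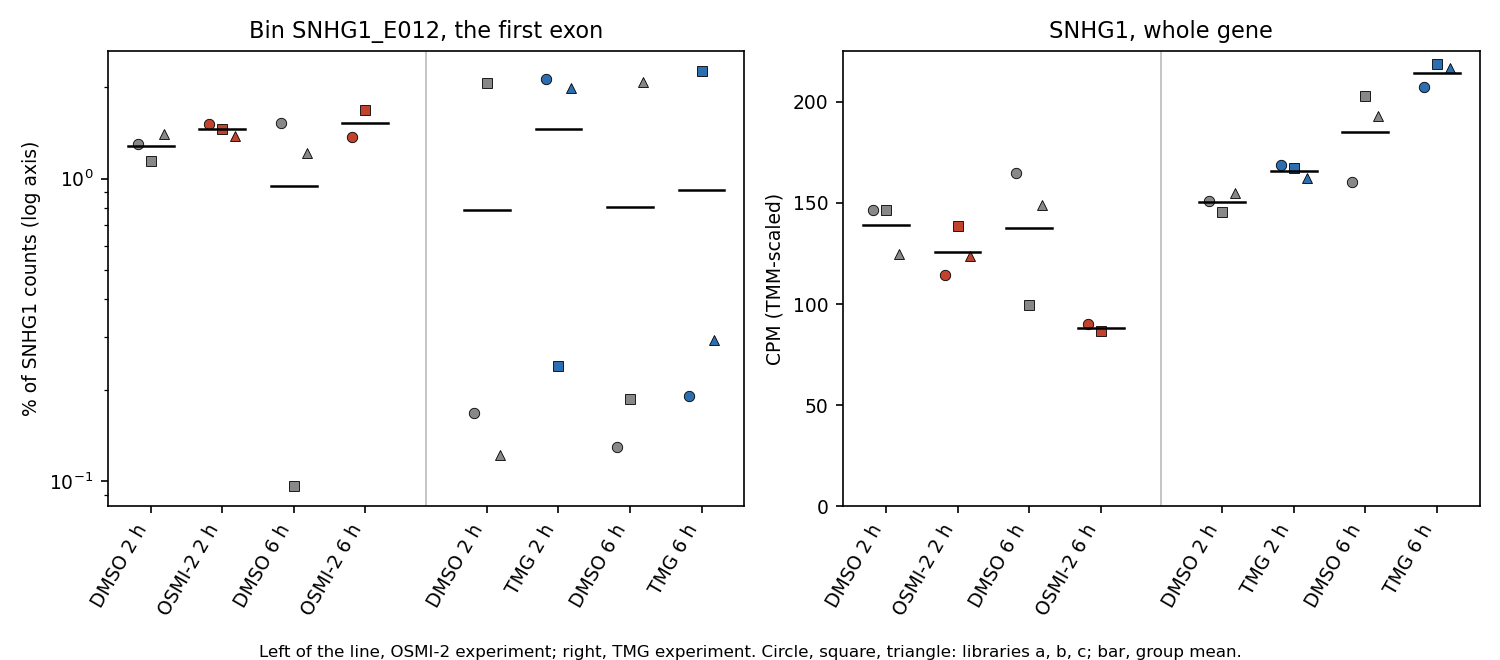
Share of SNHG1 counts in its 21-base first bin, in percent on a log axis, for every library by experiment, treatment and time. Each group of the TMG experiment holds libraries near 2% and libraries below 0.3%, while 10 of the 11 libraries of the OSMI-2 experiment sit between 1.14% and 1.69%.

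Other genes of the pathway were counted by list. In DMSO at 6 h against 2 h of the OSMI-2 experiment, 14% of all genes were called lower and 4.59% higher. Of 31 protein-coding snoRNA hosts in the tables, ribosomal protein and translation factor genes for the most part, 19 fell and none rose. Their median log2 difference was -0.92 against -0.25 for all genes. The number that fell was 5 with TMM factors from genes only, 14 with DESeq2, 24 without DMSO 6 h library a (29% of all genes) and 3 to 24 over all fits that left out 1 library (3 without DMSO 2 h library a), and none rose in any of these. The numbers of all genes called with TMM factors from genes only are given with the time comparison above. For DESeq2 and the remaining fits they are not given here, so those counts cannot be set against them. The lowest were RPS20 at -1.56, RPL17 at -1.46, TPT1 at -1.38 and RPL21 at -1.29, the first 2 and the last being ribosomal proteins. SNHG5, at -1.83, was lower than all of them. Of 6 other noncoding hosts in the tables, SNHG16 fell, at -0.87 (edgeR adjusted p = 0.0199), and the list's median was -0.55. Of 8 core proteins of snoRNA particles 4 fell, the methyltransferase fibrillarin (FBL, -0.99), NHP2 (-0.83), NOP10 (-0.80) and GAR1 (-0.76), with a median of -0.70; none of these 4 was called with factors from genes only.

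In the same comparison, with 4.59% of all genes called higher and 14% lower, genes of the decay pathway were counted too. Among 10 decay factors, SMG1, the kinase that phosphorylates UPF1, rose by 0.95 and none fell, and among 9 coding transcripts known as decay targets, the uridine phosphorylase UPP1 fell by 0.98 and none rose. Without DMSO 6 h library a, 1 decay factor rose and 1 fell, 1 decay target fell, 1 other noncoding host fell and 6 core proteins fell. The shares of all genes called in that fit are given with the time comparison above. In the DMSO libraries of the TMG experiment, 3 protein-coding hosts rose and 10 fell of 31, with EIF4A2 at 0.48, HSPA8 at -0.42, RPS2 at -0.40 and TAF1D at 0.35. When all 23 libraries were fitted at once, 2 rose and none fell. The share of all genes called in that fit is given further below, in either direction only. With the DMSO libraries of the TMG experiment fitted on their own, the decay factors SMG9 (0.35), SMG1 (0.31) and UPF2 (0.19) rose. The endonuclease SMG6 fell (-0.43), with 4 higher and 1 lower of 10. Of the 9 coding decay targets 4 rose and 2 fell, the largest changes being UPP1 at -1.03, ATF3 at 1.002, DDIT3 at 0.74 and ATF4 at 0.64, the last 3 being stress-response transcription factors. Of all genes, 16.3% were called higher and 29.6% lower in this comparison. DANCR rose among the noncoding hosts (0.26), and of the core proteins the pseudouridine synthase DKC1 fell (-0.67) and NOP56 rose (0.24).

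The drugs left these lists nearly without calls by edgeR. With TMG at 2 h, TAF1D rose by 0.26, RPLP2 fell by 0.21 and SMG1 rose by 0.22, and no other list had a call. Among all genes 1.25% were called higher and 6.67% lower there. With OSMI-2 at 2 h, OSMI-2 at 6 h and TMG at 6 h, no gene of any list passed. The shares of all genes called in these comparisons were 0%, 4.94% and 6.03%, in that order. Without DMSO 6 h library a, 9 of 31 protein-coding hosts, 5 of 10 decay factors, 3 of 9 decay targets and 4 of 8 core proteins were called higher with OSMI-2 at 6 h, and 1 protein-coding host lower, against 34.2% of all genes called higher and 8.21% lower. With OSMI-2 at 6 h the median of the protein-coding hosts was 0.30, that of the decay factors 0.27, that of the decay targets 0.28 and that of the snoRNA particle proteins 0.30, against 0.15 for all genes and -0.27 for the 6 hosts.

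Across the 23 libraries the hosts did not vary as a single group. GAS5 and SNHG8 had a Spearman correlation of log2 CPM of 0.835, SNHG5 and SNHG8 of 0.806, and SNHG5 and SNHG6 of 0.784, whereas SNHG1 and SNHG15 had -0.664. Libraries share experiments, base composition and depth, so these coefficients only describe the data. SNHG15 lay between 63.2 and 70.8 CPM in all TMG experiment libraries and between 71.7 and 139 CPM in the OSMI-2 experiment, the opposite order to SNHG1 for most libraries. The genes most like the mean log2 level of the 6 hosts, among 11247 ranked, were POMP (0.963), PDCD2 (0.960), C4orf3 (0.938), USMG5 (0.923) and GTF2H5 (0.915).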

How the data were processed

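Polyadenylated RNA was sequenced from stranded Illumina libraries, with RNA taken by Trizol or by column, per the labels' protocols, without the choice for each sample. Per the file headers, the authors deposited 1 table per drug and time with whole-number counts per bin and library, not normalized, together with a log2 fold change of bin usage, a p-value and an adjusted p-value. STAR and hg19 stand in the submitters' processing notes, with no version. The counter and the use of strand are not given in the sources used here, so hosts that overlap a gene on the other strand are uncertain. Index-read files were not used, and 0 count columns were left out.

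A read that spans bins can count in each of them, so bin sums are not reads; the highest-bin alternative avoids this. Counts of bins outside detained introns were summed per gene over the 164219 bins. Levels are CPM with TMM factors. Genes and introns were fitted with edgeR 4.0.16 (R 4.3.3; filterByExpr, TMM, quasi-likelihood test, no covariates), each comparison on its own libraries, and p-values were adjusted by Benjamini-Hochberg with a threshold of 0.05. The libraries of both experiments entered the interaction tests. Bin shares were tested with diffSpliceDGE and with limma 3.58.1. The limma value was log2(count + 1) of a bin minus that of the gene's other bins summed, each with a mean count of at least 10. DESeq2 1.42.0, other size factors, filters, a GC covariate (GC known for 12083 genes, 91.3%), 1 fit of all libraries, the highest bin and each library left out were alternatives. Scripts were tested on simulated data. Precision is set by the spread between 2 or 3 libraries a group; counts per library of 4230 or more for SNHG1 and 9753 or more for GAS5 are not the limit.

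The members and lists were chosen with earlier results of these data known. All members are named in every comparison, up to 4 called genes of each other list by largest log2 change, and the 5 genes most like the hosts' mean over the libraries among genes with a mean count of at least 50. The 3 bins described were singled out after their values were seen.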

Additional observations from a re-analysis of the deposited data

Results flagged for a closer look

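Values of 4 host contrasts stood out because effects differed between the 2 experiments, by a test of the difference itself. For DMSO over time the contrast was the same in both, and for SNHG1 at 6 h the drugs themselves differed. For DMSO at 6 h against 2 h, the OSMI-2 experiment minus the TMG experiment was -1.9166 for SNHG5, -1.1457 for GAS5 and -1.1288 for SNHG8 on the log2 scale (edgeR adjusted p = 0.001308, 0.009032 and 0.01673). The first of these reflects SNHG5 means of 320.1 CPM at 2 h and 88.13 CPM at 6 h in the OSMI-2 experiment, against 265.2 and 275.7 CPM in the TMG experiment. GAS5 means were 401.1 and 250.9 CPM against 255.6 and 353.7 CPM, and SNHG8 means 51.2 and 30.99 CPM against 41.89 and 55.45 CPM. The summed level of the 6 hosts went from 1063.8 to 621.5 CPM in the first experiment and from 816.6 to 970.8 CPM in the second.

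For the drugs at 6 h, OSMI-2 minus TMG was -0.8495 for SNHG1 (edgeR adjusted p = 0.04171). SNHG1 means were 137.7 CPM with DMSO and 88.38 CPM with OSMI-2, against 185.2 CPM with DMSO and 214.1 CPM with TMG. Leaving out 1 library at a time moved the value from -1.0374 to -0.2513; the latter, without OSMI-2 experiment DMSO 6 h library a, is -1.1341 relative to the median of all genes in that fit.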

How the results depend on the processing

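The number of hosts called depended on the setting in 5 comparisons. With OSMI-2 at 6 h it was 0, but 1 with TMM over genes only, 1 with DESeq2, 3 in 1 fit of all libraries, 3 with GC slope as a covariate, and 0 to 2 when 1 library was left out (2 without DMSO 6 h library a); all genes called went from 4.94% to 47%, 43.2% and 42.4% in the last 3 of these settings. For DMSO over time in the OSMI-2 experiment it was 1, but 3 with median-of-ratios factors, 4 in 1 fit of all libraries, 4 with GC slope, 2 by the highest bin, and 1 to 4 when 1 library was left out (4 without DMSO 6 h library a); all genes called went from 18.5% to 48.2% in 1 fit, 52.1% with GC slope and 37.2% without that library. For DMSO over time in the TMG experiment it was 4, but 0 in 1 fit of all libraries (14.4% of all genes in place of 45.9%), 2 with GC slope (22.5%), and 1 to 4 when 1 library was left out (1 without DMSO 2 h library b, 2 without DMSO 2 h library a or c or DMSO 6 h library b or c). For the drug difference at 6 h it was 1, called lower, but 2 with TMM over genes only and 0 to 3 when 1 library was left out; the 3 without OSMI-2 experiment DMSO 6 h library a were all called higher, as were 73% of all genes, in place of 16.9%. For the DMSO time difference between experiments it was 3, and 2 to 5 when 1 library was left out (5 without OSMI-2 experiment DMSO 6 h library a, with 56.4% of all genes called in place of 13.2%). Host bins called with OSMI-2 at 6 h were 0 by limma, 1 by diffSpliceDGE, 1 with a mean count of at least 50 and 2 in the authors' deposited table. For DMSO over time in the OSMI-2 experiment they were 2, and 0 when any 1 library was left out. Where a setting is named without the share of all genes or bins called in it, its host count cannot be set against that share here. The cause of these shifts was not tested.

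Values that changed sign missed the threshold on both sides, except SNHG1 for DMSO over time in the TMG experiment, which was called at 0.19 and not at its changed sign. With OSMI-2 at 2 h, GC slope gave 0.0833 for GAS5 and -0.0016 for SNHG15. With OSMI-2 at 6 h, SNHG6 was 0.1193 (median-of-ratios), 0.1582 (1 fit) and 0.0645 (GC slope), and SNHG15 -0.2171 (TMM over genes only), -0.1362 (DESeq2) and -0.0721 (GC slope). With TMG at 2 h, SNHG8 was -0.0042 (median-of-ratios) and -0.0479 (GC slope), SNHG5 -0.0507 (GC slope), and SNHG6 0.0154 (TMM over genes only), 0.0211 (DESeq2), 0.0314 (1 fit) and 0.0310 (highest bin). With TMG at 6 h, SNHG15 was 0.0162 (TMM over genes only), 0.0165 (DESeq2), 0.0299 (1 fit), 0.0027 (GC slope) and 0.0317 (highest bin), SNHG8 0.0023 (1 fit) and 0.0055 (GC slope), and SNHG6 0.0073 (highest bin). For DMSO over time in the OSMI-2 experiment, SNHG1 was -0.0644 (median-of-ratios), -0.0147 (1 fit), -0.0368 (GC slope) and -0.1350 (highest bin), and SNHG15 0.0147 (TMM over genes only). In the TMG experiment SNHG5 was 0.0195 (TMM over genes only), 0.0197 (DESeq2) and 0.0559 (1 fit), and SNHG1 -0.0054 (GC slope). With TMM over genes only, the time difference was -0.0241 for SNHG6 with OSMI-2 and -0.0046 for GAS5 with TMG, and the drug difference -0.0391 for SNHG15 at 2 h, -0.1008 for SNHG6 at 6 h and -0.0788 for SNHG15 at 6 h.

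Leaving out 1 library at a time changed the sign within these ranges. With OSMI-2 at 2 h SNHG8 ran from -0.4792 to 0.0150, SNHG15 from -0.0176 to 0.1212 and GAS5 from -0.4548 to 0.1180. With OSMI-2 at 6 h SNHG6 ran from -0.1334 to 0.1443 and SNHG15 from -0.0703 to 0.1720. With TMG at 2 h SNHG8 ran from -0.0691 to 0.0435 and SNHG15 from -0.0145 to 0.0597, and at 6 h from -0.1363 to 0.0146 and from -0.0267 to 0.0131. For DMSO over time in the OSMI-2 experiment SNHG1 ran from -0.1050 to 0.2030. The time difference of OSMI-2 ran from -0.0690 to 0.3357 for SNHG6 and from -0.1808 to 0.1382 for SNHG15. That of TMG ran from -0.1181 to 0.0459 for SNHG8, from -0.0551 to 0.0145 for SNHG15, from -0.0290 to 0.0719 for GAS5 and from -0.0900 to 0.0086 for SNHG6. The drug difference at 2 h ran from -0.4467 to 0.1061 for GAS5, from -0.2936 to 0.0706 for SNHG6, from -0.4029 to 0.0831 for SNHG8 and from -0.0215 to 0.2107 for SNHG15, and at 6 h from -0.4381 to 0.3480 for SNHG8.

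No paired analysis was possible because the count columns carry letters and no replicate numbers. Standard errors of the host log2 differences at 2 h, with 3 libraries a group in both experiments, were 0.13 to 0.29 with OSMI-2 and 0.05 to 0.06 with TMG, so host differences of the size seen with TMG were not detectable in the OSMI-2 experiment.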
